A study of Rattus norvegicus with 19 samples.

Results

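Prostaglandin genes were followed in rat cortex after the blood-brain barrier was opened or after serum albumin or TGF-β1 was applied to it. The 9 genes were chosen by name: the phospholipase Pla2g4a, the cyclooxygenases Ptgs1 and Ptgs2, the terminal synthases Ptges, Ptges2, Ptges3 and Ptgis, and the receptors Ptger2 and Ptger4. They are 9 of the 14218 genes that the array names by at least 1 probe set of their own, and 11 probe sets name them. Ptges and Ptgs1 have a pair of probe sets each, and the one with the higher average signal across all 19 arrays stands for the gene.

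All samples were somatosensory cortex of adult male Wistar rats, perfused with artificial cerebrospinal fluid that carried the agent. In set 1, each agent and time had 1 array: DOC (sodium deoxycholate, 2 mM; this bile salt was used to open the barrier) at 7, 24 and 48 h, and albumin (0.1 mM) and TGF-β1 (10 ng/ml) at 8, 24 and 48 h. The lone sham array of set 1 was taken at 24 h and served for all times. Set 2 was taken at 24 h from other animals, 3 with albumin, 4 with albumin plus blockers of the TGF-β receptors (an antibody to TGF-βR2 at 50 µg/ml and the kinase inhibitor SB431542 at 100 µM) and 2 sham. No sham received the blockers, and no group received the blockers without albumin. The series asks how barrier opening, albumin and TGF-β1 relate to epilepsy that arises in the cortex.

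Prostaglandins are made in steps. The phospholipase frees arachidonic acid from membranes, a cyclooxygenase turns it into prostaglandin H2, and a terminal synthase makes the final product, which is PGE2 for the Ptges enzymes and prostacyclin for Ptgis. PGE2 then acts on G-protein-coupled receptors such as EP2 (Ptger2) and EP4 (Ptger4). In brain, Ptgs2 is present in excitatory neurons and is a known immediate early gene of synaptic activity, and Ptges and Ptgs2 are both inducible by inflammatory cytokines, while Ptges2 and Ptges3 are regarded as constitutive.

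Values are log2 signals, so a difference of 1 is a doubling. A gene was tested in a set when its signal was above 4 on at least 2 arrays of that set, which 6 of the 9 members passed in each set. Tests were limma models over all genes tested, with Benjamini-Hochberg adjustment, and a gene was called at an adjusted p under 0.05. The sets were not compared by level, because the median signal of an array was 5.09 to 5.17 in set 1 but 6.05 to 6.18 in set 2. Among the arrays of set 2, that of albumin replicate 2 was least like the rest, with a median correlation of 0.981 against a highest value of 0.996. The neuron marker list, 12 of 12 genes tested, had mean signals of 11.5 to 12.2 in set 1 and 12.5 to 13.0 in set 2. These are bulk samples, in which fewer cells of a type and less RNA per cell cannot be told apart.

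Of the members, Ptges varied most. Its standard deviation over the 19 arrays, after each set's mean was removed, was 1.78 on the log2 scale, against 1.10 for Ptgs2, 0.874 for Ptgs1, 0.653 for Pla2g4a, 0.233 for Ptges2 and 0.153 for Ptges3. The inducible synthase and the inducible cyclooxygenase therefore had the widest spread, and the constitutive synthases the narrowest. The upstream sequences of the leading pair are shown because the results turn on these genes. They are the 250 bases before the annotated start in RefSeq, assembly GRCr8, read 5′ to 3′ on the gene's strand, at chr3:34586988-34587237 (minus strand) for Ptges and chr13:64713813-64714062 (plus strand) for Ptgs2, with motif matches in capitals.
Ptges: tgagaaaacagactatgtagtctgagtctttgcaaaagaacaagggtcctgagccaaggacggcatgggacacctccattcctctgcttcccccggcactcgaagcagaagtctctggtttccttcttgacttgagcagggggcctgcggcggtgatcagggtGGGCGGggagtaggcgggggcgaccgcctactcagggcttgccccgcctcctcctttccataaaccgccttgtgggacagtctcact
Ptgs2: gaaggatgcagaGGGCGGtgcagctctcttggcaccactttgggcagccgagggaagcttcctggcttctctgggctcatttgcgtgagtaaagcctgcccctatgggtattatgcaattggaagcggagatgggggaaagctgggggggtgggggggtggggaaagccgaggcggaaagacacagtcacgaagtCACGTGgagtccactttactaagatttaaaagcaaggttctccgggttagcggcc
The 7 motifs were searched on both strands, and their shares are those of all 33469 rat promoters cut to the same length. They were the TATA box TATAAA (12.9%), the CRE core ACGTCA (6.95%), the AP-1 motif TGANTCA (6.34%), an NF-κB-like motif named here without its letters (16.4%), the GC box GGGCGG (30.5%), the E-box CACGTG (5.59%) and a C/EBP-like motif TTGCGNAA (0.729%). No motif overlapped another in these windows. The Ptges window held 1 match, the GC box GGGCGG, whose first base lies 87 bases before the start. The Ptgs2 window held the GC box 238 bases before the start and the E-box CACGTG 55 bases before it. A match describes the letters in this window and is not a measured site. Windows were found for 7 of the 9 members, and not for Ptges2 and Ptgis.

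Ptges, the inducible PGE2 synthase, was highest at the earliest time under every agent of set 1. After DOC its signal was 7.90 at 7 h, 5.32 at 24 h and 4.47 at 48 h. After albumin it was 9.27 at 8 h, 6.33 at 24 h and 7.24 at 48 h, and after TGF-β1 8.09, 3.56 and 4.13. The sham array stood at 3.35, below all 9 treated arrays. The sham array and the TGF-β1 array at 24 h lay under the filter of 4, near the floor, where array signal does not scale with transcript, so folds against them are lower bounds with such signals set to 4. The early arrays were at least 15.0-fold (DOC), 38.6-fold (albumin) and 17.0-fold (TGF-β1) above sham, and the 3 early values did not overlap the 6 later ones, which held for 3.42% of all genes and for no other member. At 24 h they were at least 2.50-fold (DOC) and 5.04-fold (albumin) above sham, while no fold can be given for TGF-β1, and at 48 h at least 1.39-fold (DOC), 9.46-fold (albumin) and 1.09-fold (TGF-β1). After albumin the signal was higher at 48 h than at 24 h. No sham was taken at the early time or at 48 h. At those times an effect of the agent and one of the perfusion itself cannot be told apart.

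**Figure D1:**
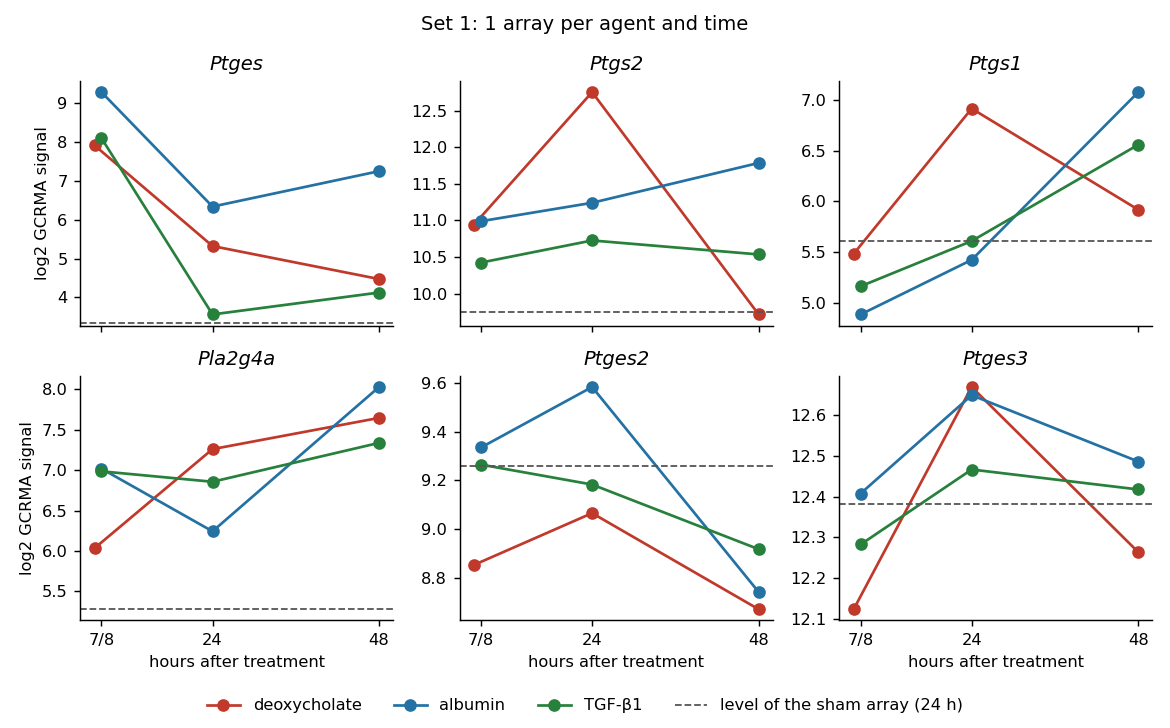
Log2 GCRMA signal (vertical axes, a separate range for each gene) of the 6 tested members against hours after treatment (horizontal axis) in set 1, with 1 array per point, 1 line per agent and the sham array at 24 h as a dashed line. Ptges starts between 7.90 and 9.27 and lies lower at 24 and 48 h under each agent, while Pla2g4a lies above the sham line on all 9 treated arrays.

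Averaged over the 3 agents, Ptges fell from 7/8 h to 24 h by 3.35 ± 0.44 on the log2 scale (SE of the limma model; 95% interval -4.40 to -2.30; adjusted p = 0.0357). At 48 h it had fallen by 3.14 ± 0.44 from 7/8 h (95% interval -4.19 to -2.09; adjusted p = 0.0124), an 8.82-fold lower signal. The direction was the same in 3 of 3 agents at both times, with an early signal 5.997-fold (DOC), 7.66-fold (albumin) and at least 17.0-fold (TGF-β1) above the one at 24 h, and 10.8-fold, 4.08-fold and 15.6-fold above the one at 48 h. Ptges was the lone member of 6 called at either time, where 0.299% and 1.18% of all genes were called lower at 24 and 48 h. Among all genes, 8.42% had both later arrays below the early array within each agent, a pattern that 1 of the 6 members, Ptges, had. With signals below 4 set to 4, an alternative added after seeing the data, Ptges fell by 3.20 at 24 h (adjusted p = 0.0304) and by 3.14 at 48 h (adjusted p = 0.00885), which are again calls. Both calls rest on 1 array per agent and time, and no sham was taken at 7/8 h or 48 h. The call at 24 h was lost without any 1 of 7 of the 9 treated arrays (adjusted p up to 0.147) and kept without DOC at 48 h (0.0352) or albumin at 48 h (0.0322). The call at 48 h was lost without DOC at 7 h (0.0587) or TGF-β1 at 48 h (0.0693).

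The second Ptges probe set gave lower signals, also highest early under each agent. It read 4.70, 2.85 and 2.84 after DOC, 5.97, 3.62 and 4.90 after albumin, 5.81, 3.08 and 3.18 after TGF-β1 and 3.16 in the sham. Most of these lie under 4, 1 later array lay inside the early range, and 3 later arrays lay below the sham. With the mean of both probe sets in place of the brighter, Ptges fell by 2.83 at 24 h (adjusted p = 0.0405) and fell by 2.50 at 48 h (adjusted p = 0.0166). Red cell markers were highest early as well: of 5 listed, the 2 tested (Hbb and Alas2) were both called lower at 48 h than at 7/8 h, with a median difference of -1.38. Their mean stood 2.42, 2.00 and 0.557 above sham after DOC at 7, 24 and 48 h, 2.82, 1.76 and 1.35 after albumin, and 2.09, 1.63 and 1.29 after TGF-β1, and their part in the Ptges values was not tested.

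Against the sham array, the mean of the 3 albumin arrays was higher by 4.27 ± 0.63 for Ptges (95% interval 2.78 to 5.75; limma adjusted p = 0.0510), which misses the threshold. The sham array is under 4, and with such signals set to 4 the difference was 3.61 (adjusted p = 0.0669), or at least 12.2-fold. It passed with a filter on mean signal above 5 (adjusted p = 0.0434) and with a trended, robust prior (0.0322), and ranged from 0.0442 to 0.131 when single arrays were left out. The measured difference was 2.55 ± 0.63 for DOC (adjusted p = 0.122) and 1.91 ± 0.63 for TGF-β1 (adjusted p = 0.472), against the same sham array. The 3 agents were not called different from each other (moderated F = 15.1, adjusted p = 0.23), although the albumin arrays were the highest of the 3 agents at each of the 3 times. No member was called in these 4 comparisons, where 0.469% (DOC), 0.369% (albumin), 0.0% (TGF-β1) and 0.00998% (among agents) of all genes were called. At an unadjusted p under 0.05, limma gave 1871 genes for DOC, 1192 for albumin, 750 for TGF-β1 and 1467 among agents. With the trended, robust prior, 7 genes were called for TGF-β1, none of them a member.

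In set 2, Ptges was higher in albumin-treated cortex but spread widely. The albumin arrays read 4.71, 6.60 and 7.26, the sham arrays 3.76 and 4.50, and the arrays with albumin plus blockers 3.69, 5.27, 6.72 and 4.31. All 3 albumin arrays were above both sham arrays, as for 22.2% of all genes. The arrays with blockers overlapped both other groups, 1 of them lying below both shams. The difference of albumin from sham was 2.06 ± 0.96 (95% interval -0.15 to 4.26; limma adjusted p = 0.261); 1 sham array and 1 array with blockers were under 4, and with such signals set to 4 the difference was 1.94. Albumin plus blockers differed from albumin alone by -1.19 ± 0.80 (95% interval -3.04 to 0.65; adjusted p = 0.448) and from sham by 0.87 ± 0.91 (95% interval -1.23 to 2.96). The second Ptges probe set did not separate albumin from sham. It read 3.01, 4.66 and 4.60 with albumin and 3.02 and 3.05 in the shams. With blockers it read 2.99, 3.01, 4.80 and 2.99, and most of its signals in set 2 lie under 4.

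Ptgs2, the inducible cyclooxygenase (COX-2), did not share the early peak of Ptges. In set 1 its signal after DOC was 10.94 at 7 h, 12.75 at 24 h and 9.71 at 48 h, and after albumin 10.99, 11.24 and 11.78. After TGF-β1 it was 10.42, 10.72 and 10.53, against 9.74 on the sham array. Thus 8 of the 9 treated arrays were above sham, DOC was highest at 24 h at 8.05-fold of sham and stood at 0.981-fold at 48 h, and albumin was highest at 48 h at 4.12-fold. The differences from sham over the 3 times were 1.39 ± 0.84 (DOC), 1.60 ± 0.84 (albumin) and 0.82 ± 0.84 (TGF-β1), with limma adjusted p of 0.424, 0.537 and 0.992. Between times the difference was 0.79 ± 0.60 at 24 h and -0.11 ± 0.60 at 48 h against 7/8 h (adjusted p = 0.589 and 0.946). The 24 h value rests on the DOC array: without it the difference was -0.0038.

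In set 2, Ptgs2 read 10.34, 14.05 and 11.52 with albumin, 10.59, 10.76, 11.02 and 9.84 with albumin plus blockers, and 10.08 and 10.13 in the shams. All 3 albumin arrays were above both shams, as for 22.2% of all genes. Albumin replicate 2, the array least like the rest, was 15.4-fold above the sham mean. The arrays with blockers overlapped both groups. The difference of albumin from sham was 1.86 ± 0.91 (95% interval -0.22 to 3.95; limma adjusted p = 0.276) and became 0.82 (adjusted p = 0.364) without replicate 2. The arrays with blockers differed from those with albumin alone by -1.41 ± 0.76 (95% interval -3.16 to 0.33; adjusted p = 0.369), and by -0.37 without albumin replicate 2 (adjusted p = 0.709).

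**Figure D2:**
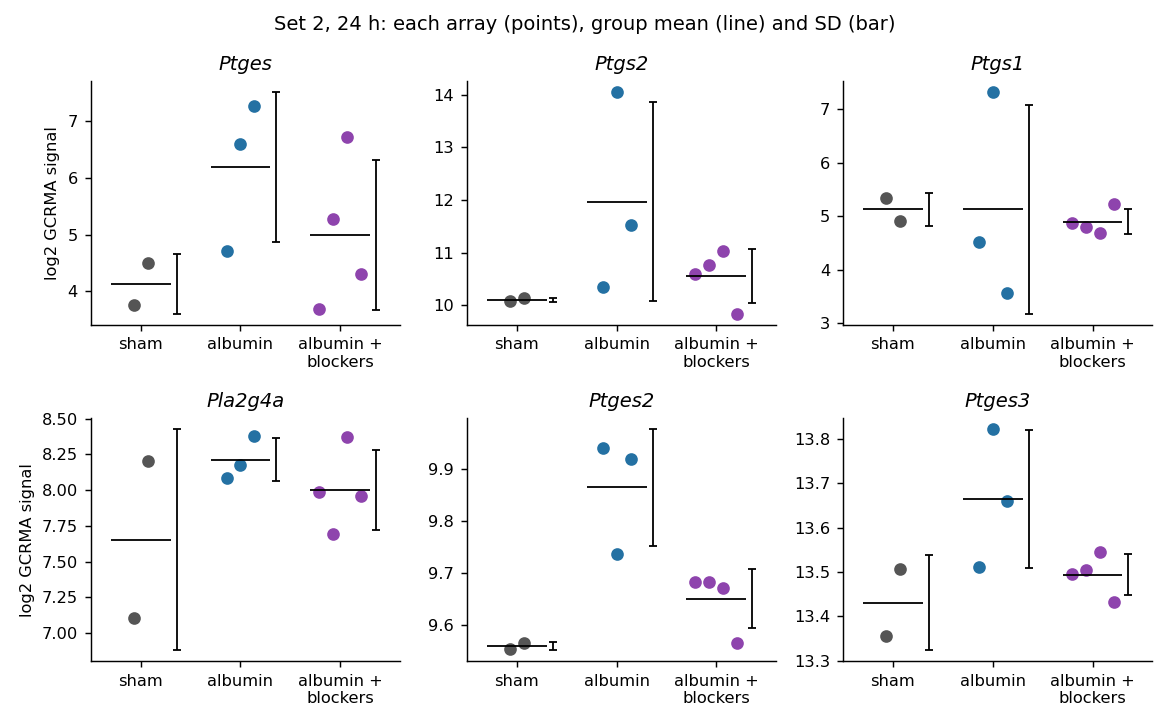
Log2 GCRMA signal (vertical axes, a separate range for each gene) of the 6 tested members in the 3 groups of set 2 at 24 h, with each array as a point, the group mean as a line and the standard deviation as a bar (n = 2 sham, 3 albumin, 4 albumin plus blockers). The albumin arrays lie above both sham arrays for Ptgs2, Ptges, Ptges2 and Ptges3, and above all arrays with blockers for Ptges2. Of all genes, 22.2% and 8.71% had these patterns.

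Ptges and Ptgs2, which act in sequence, correlated more in set 2, all at 24 h, than in set 1, and this was not tested. Their Pearson correlation after removing set means was 0.437 over 19 arrays, 0.309 within set 1, 0.673 within set 2 and 0.848 within set 2 without albumin replicate 2, given as a description of arrays that share agents and times. In set 1 the early arrays combined the highest Ptges with a middling Ptgs2, while the DOC array at 24 h had the highest Ptgs2 with a Ptges difference from sham of 1.97. The closest pair was Ptgs2 with Ptges3, at 0.755 over 19 arrays, 0.633 in set 1 and 0.935 in set 2, or 0.848 in set 2 without albumin replicate 2.

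**Figure D3:**
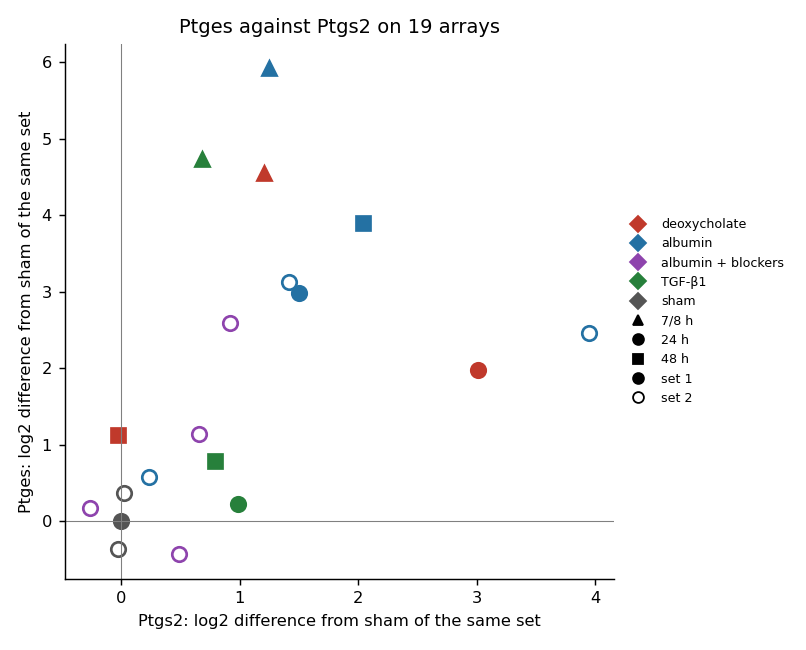
Log2 difference of Ptges (vertical axis) and of Ptgs2 (horizontal axis) from the sham mean of the same set, for each of the 19 arrays, with colour for the agent, shape for the time and open symbols for set 2. The 3 early arrays of set 1 sit at measured differences of 4.56 to 5.92 for Ptges, and the albumin array furthest right, replicate 2 of set 2, does not have the highest Ptges of its set.

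Ptgs1, the constitutive cyclooxygenase (COX-1), found in brain chiefly in microglia, was lowest under each agent of set 1 at the early time, when Ptges was highest. In set 1 its signal was 5.48, 6.91 and 5.92 after DOC at 7, 24 and 48 h, 4.89, 5.42 and 7.08 after albumin, and 5.16, 5.61 and 6.56 after TGF-β1, against 5.61 in the sham. All 3 early arrays lay below the sham and all 3 arrays at 48 h above it. For neither of these patterns was the share of all genes counted. The difference between 48 h and 7/8 h was 1.34 ± 0.44 (95% interval 0.29 to 2.39; limma adjusted p = 0.149), 2.53-fold and positive in 3 of 3 agents, and 0.80 ± 0.44 between 24 h and 7/8 h (adjusted p = 0.458). It did not pass the threshold at 48 h except without the DOC array at 48 h (1.95, adjusted p = 0.0302). In all, 5.09% of genes were called at that time, and 25.4% had the 48 h array above the early array within each agent, as 3 of the 6 members did (Ptgs1, Ptges3 and Pla2g4a). The second Ptgs1 probe set stayed below 4 on all 19 arrays (2.57 to 3.74).

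Markers of microglia and macrophages were higher at 48 h too. Of 12 markers tested in set 1, 9 were called higher at 48 h than at 7/8 h (5 to 9 over the alternatives) and 12 were above 0, with a median difference of 1.78 against 0.01 over all genes. Their mean signal relative to sham went from -0.49 to 1.47 after DOC, from 0.09 to 1.93 after albumin and from 0.06 to 1.88 after TGF-β1 between the early time and 48 h. Meningeal markers were higher at 48 h as well, with 4 of 8 tested called and a median difference of 1.84. Their mean relative to sham was 0.33, -0.13 and 1.18 after DOC at 7, 24 and 48 h, 1.62, 0.02 and 2.96 after albumin and 0.97, 1.19 and 2.78 after TGF-β1. The part of microglia and meninges in the Ptgs1 values, and in those of Pla2g4a, was not tested. In set 2 the albumin arrays read 4.51, 7.32 and 3.57 for Ptgs1, with replicate 2 highest and replicate 3 lowest of all 9 arrays, the arrays with blockers 4.88, 4.80, 4.69 and 5.23, and the shams 5.35 and 4.91. The mean difference of albumin from sham was 0.00 ± 0.90 (95% interval -2.07 to 2.07; limma adjusted p = 0.998), and -1.09 without replicate 2 (adjusted p = 0.128).

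Pla2g4a, the cytosolic phospholipase that frees arachidonic acid, was above sham on every treated array of set 1. It read 6.03, 7.26 and 7.65 after DOC, 7.02, 6.24 and 8.03 after albumin, and 6.99, 6.86 and 7.34 after TGF-β1, against 5.28 in the sham, which is 1.69- to 6.74-fold. All 9 treated arrays above the sham was a pattern of 2 of the 6 members, Ptges and Pla2g4a, and of 11.2% of all genes. The differences were alike among agents, at 1.70 ± 0.53 (DOC), 1.82 ± 0.53 (albumin) and 1.78 ± 0.53 (TGF-β1), with limma adjusted p of 0.172, 0.243 and 0.404. Each rests on the same lone sham array. At 48 h the signal was 0.99 ± 0.38 above that at 7/8 h (adjusted p = 0.194).

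In set 2 the sham arrays of Pla2g4a themselves differed, at 7.11 and 8.20. Albumin read 8.08, 8.18 and 8.38, and albumin plus blockers 7.99, 7.70, 8.37 and 7.96, so 1 sham array lay among the treated ones and the other below all of them. The difference of albumin from sham was 0.56 ± 0.31 (95% interval -0.15 to 1.27; limma adjusted p = 0.327), and it moved to 0.01 without sham replicate 1 and to 1.10 without sham replicate 2. Pla2g4a and Ptgs2 are neighbours on rat chromosome 13. In the gene table of GRCr8 only a pseudogene (Tmem208-ps1) and a long non-coding RNA (Ptgs2os) lie between them.

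Ptges2, a membrane-associated PGE synthase, had small differences and a tight spread in set 2. Its albumin arrays read 9.94, 9.74 and 9.92, the arrays with blockers 9.68, 9.68, 9.67 and 9.57, and the shams 9.55 and 9.57. The albumin group lay above both other groups without overlap. Of all genes, 22.2% had the albumin arrays above both shams and 8.71% had them above all arrays with blockers. Albumin differed from sham by 0.30 ± 0.10 (95% interval 0.07 to 0.54; limma adjusted p = 0.145), and the blockers from albumin by -0.21 ± 0.08 (adjusted p = 0.273). In set 1 the signal was 8.85, 9.07 and 8.67 after DOC, 9.34, 9.58 and 8.74 after albumin, 9.27, 9.18 and 8.92 after TGF-β1 and 9.26 in the sham, and the array at 48 h was the lowest of each agent (difference from 7/8 h -0.37 ± 0.15, adjusted p = 0.204). The share of all genes lowest at 48 h under each agent was not counted.

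Ptges3, a co-chaperone also known as p23 that can act as a cytosolic PGE synthase, stayed within 12.12 to 12.67 over the 10 arrays of set 1. The array at 24 h was the highest of each agent, at 12.67 after DOC, 12.65 after albumin and 12.47 after TGF-β1, against 12.38 in the sham, and the difference from 7/8 h was 0.32 ± 0.12 (limma adjusted p = 0.304). In set 2 it read 13.51, 13.82 and 13.66 with albumin, 13.49, 13.50, 13.54 and 13.43 with blockers, and 13.35 and 13.51 in the shams. The albumin arrays overlapped those with blockers, and the difference of albumin from sham was 0.23 ± 0.12 (adjusted p = 0.282). For set 1, the share of all genes highest at 24 h under each agent was not counted.

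The receptors Ptger2 and Ptger4 and the prostacyclin synthase were below the filter on all 19 arrays. Ptger2 (EP2) read 1.86 to 1.90 in set 1 and 1.78 to 1.82 in set 2, and Ptger4 (EP4) 2.19 to 2.25 and 2.06 to 2.14. Ptgis read 3.09 to 3.42 and 2.70 to 3.27. Such signals lie at the floor of the array, so no difference could be read from them, and absence of the transcripts is not shown. Of the 9 members, those tested are therefore all enzymes of synthesis. The other PGE2 receptors stand on the wider eicosanoid list. Ptger1 was below 4 on all 19 arrays, and Ptger3 passed the filter in set 2 alone, where it read 3.95, 6.70 and 4.46 with albumin, 3.66, 3.52, 3.62 and 3.60 with blockers, and 3.54 and 4.09 in the shams. Albumin replicate 2 was again the highest array, albumin and sham overlapped, and the difference of albumin from sham was 1.22 ± 0.68 (limma adjusted p = 0.326).

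In set 2 the estimates of the 6 tested members come from the same arrays. The share of all genes on each side of 0 was not counted. All 6 members were above 0 for albumin against sham, with a median of 0.43 against 0.02 over all 10330 genes tested. Ptgs1 stood at 0.00 there, and at -0.039 with arrays centred on their medians. All 6 were below 0 for albumin plus blockers against albumin, with a median of -0.23 against -0.00, and these comparisons share the albumin arrays. No member was called in either, where 1.33% and 0.0194% of all genes were called, nor for blockers against sham, where 0.0% were called. At an unadjusted p under 0.05, limma gave 2208, 1715 and 444 genes in these 3 comparisons. The 3 albumin arrays were above both shams for 4 of 6 members and for 22.2% of all genes, and above all 4 arrays with blockers for 1 of 6 members and for 8.71% of all genes.

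**Figure D4:**
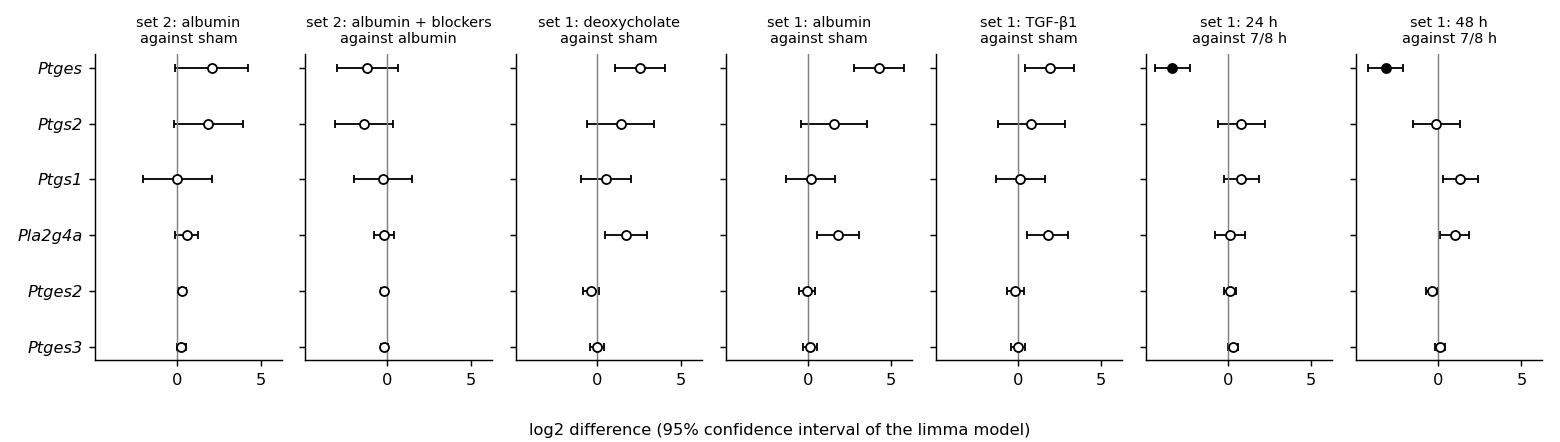
Log2 difference (horizontal axes) with its 95% confidence interval from the limma model for the 6 tested members (rows) in 7 comparisons (panels), where filled points passed an adjusted p of 0.05. The filled points are those of Ptges at 24 h (-3.35) and 48 h (-3.14) against 7/8 h, and the intervals of Ptges2 and Ptges3 are the narrowest.

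Genes with a pattern like that of a member were named by the highest Pearson correlation over 19 arrays with set means removed, among 9842 genes tested in both sets. For Ptges they were Nfkbiz (0.875), an NF-κB regulator, Ier3 (0.819), Rgs16 (0.804), Tfpi2 (0.803) and Irf1 (0.800). For Ptgs2 they were Noct (0.949), Afg3l2 (0.945), Rnf4 (0.933), Skil (0.933) and Pelo (0.930), and for Ptgs1 they were Pkd2 (0.882), Slc40a1 (0.861), Mettl9 (0.849), Hs3st2 (0.839) and Smim14 (0.832). The correlation of Nfkbiz with Ptges was 0.960 within set 1 and 0.858 within set 2, over the arrays by which it was picked.

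A list named inflammatory inducers, 14 cytokine and NF-κB genes of which 10 were tested in each set, was followed beside these enzymes. The name is a label, and not every gene on the list is a known inducer of them. From 7/8 h to 48 h, 5 of the 10 lay below 0 and 5 above, with 4 called lower. The 4 were Il6 (-3.78, limma adjusted p = 0.0356), Tnf (-2.57, 0.0410), Nfkbia (-1.22, 0.0384) and Nfkbiz (-1.92, 0.00732), the last also picked above for its likeness to Ptges. The list's median difference was -0.57 against 0.01 over all genes. From 7/8 h to 24 h, 5 of the 10 were likewise below 0 and 5 above, with 1 called lower. The mean signal of the 10 above sham went from 1.95 at 7 h to 1.40 and 1.04 after DOC, from 2.29 to 1.74 and 1.38 after albumin, and from 1.69 to 0.95 and 0.92 after TGF-β1. In set 2 all 10 were above 0 for albumin against sham with a median of 1.99, 2 of them called (Nfkbia at 1.17, adjusted p = 0.0470, and Nfkb1 at 0.60, 0.0487), and all 10 below 0 for blockers against albumin with none called. These counts depend on the fit, ranging over its alternatives from 1 to 4 of 10 at 48 h and from 0 to 6 of 10 for albumin, and at 48 h it was 2 of 10 with signals below 4 set to 4, where Il6 and Tnf missed (adjusted p = 0.151 and 0.369). Nfkbiz at 48 h passed under all 14 of its alternatives, while its difference at 24 h (-1.55, adjusted p = 0.0430) passed under 4 of 14. Per array the list stood 1.25, 1.95 and 2.94 above sham with albumin and 0.31, 0.53, 0.97 and 0.12 above it with blockers.

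Neutrophil markers also stood above sham beside Ptges, with none called. Of 10 such genes 4 were tested in set 1, where their mean lay 2.25 to 4.69 above sham on the treated arrays. Set 2 had 5 tested, and their mean lay 3.11, 2.48 and 5.41 above sham with albumin and 0.41 to 3.36 above with blockers. The list mean was 3.41 on the sham array of set 1 and 3.26 on sham replicate 1 of set 2, both under 4. Such signals lie near the floor, so the sizes of these differences need not scale with transcript. The sham arrays of set 2 also differed, at -0.868 and 0.868 from their own mean. Activity genes, the list to which Ptgs2 is often assigned, had none called in either set. In set 2 their mean lay 0.17, 2.03 and 1.71 above sham on albumin replicates 1, 2 and 3, the lowest being the replicate in which Ptgs2 was lowest too. In set 1 they lay between -1.71 and 0.24 relative to sham, while Ptgs2 was above sham on 8 of 9 treated arrays. The part of these lists in the members' values was not tested.

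Of 53 other genes of eicosanoid metabolism, 47 had a probe set of their own and 28 were tested in each set. In set 2 albumin against sham, 1 of 28 was called, Ptgds, a prostaglandin D synthase. It read 11.76, 11.58 and 12.39 with albumin, 12.71, 13.70, 13.33 and 13.98 with blockers, and 14.68 and 14.05 in the shams. The 3 groups did not overlap, but Ptgds is named because it was called here. The share of all genes with groups so separated was not counted. The difference of albumin from sham was -2.46 ± 0.39 (95% interval -3.36 to -1.55; limma adjusted p = 0.0440). It passed under 8 of 18 alternatives and missed under 10, among them the fits without either sham array (adjusted p up to 0.312). Meningeal markers moved with it: 10 of 10 tested were below sham, 2 of them called (0 to 7 over the alternatives), and their mean signal was 5.29 to 6.21 with albumin, 6.70 to 7.92 with blockers and 8.14 to 8.36 in the shams. Ttr, the choroid plexus marker tested, overlapped between the groups (4.92 to 5.15 with albumin, 4.01 to 6.89 with blockers, 4.71 and 8.42 in the shams). Oligodendrocyte markers were below 0 for albumin against sham in 8 of 9 tested, with none called and a median difference of -0.10. The part of meninges, choroid plexus and oligodendrocytes in the value of Ptgds was not tested.

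In set 1, Anxa1 (annexin A1, a glucocorticoid-induced protein that restrains phospholipase A2) was above sham on all 9 treated arrays. It read 7.56, 8.36 and 9.74 after DOC, 9.04, 8.52 and 10.15 after albumin and 7.47, 7.71 and 9.66 after TGF-β1, against 5.82 in the sham, and the array at 48 h was the highest of each agent. It was called higher after DOC (2.73 ± 0.37, limma adjusted p = 0.0458) and albumin (3.41 ± 0.37, adjusted p = 0.0268), and at 48 h against 7/8 h (1.83 ± 0.26, adjusted p = 0.0131). These calls were kept under 6, 12 and 12 of 16 alternatives respectively. Tbxas1, the thromboxane synthase, read 2.45, 2.93 and 4.88 after DOC, 2.35, 3.30 and 4.46 after albumin, 2.46, 3.60 and 3.67 after TGF-β1 and 2.44 in the sham, and was higher at 48 h (1.92 ± 0.32, adjusted p = 0.0207; kept under 9 of 15 alternatives). Only the Tbxas1 arrays of DOC and albumin at 48 h lay above 4, so the gene entered the test through the time at which it was higher. With signals below 4 set to 4, the difference was 0.45 (limma adjusted p = 0.236). The microglial and meningeal markers given above were higher over the same interval. Lta4h, which makes leukotriene B4, was called higher at 48 h as well (0.66 ± 0.14, adjusted p = 0.0434; kept under 5 of 16 alternatives). No other of the 28 was called in the 6 comparisons of set 1, and the list's median difference lay between -0.03 and 0.07 in the 5 that have a direction.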

How the data were processed

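RNA from 19 cortex samples was hybridised to Affymetrix rat arrays. The authors deposited 1 log2 signal per probe set, made with GCRMA (background correction, quantile normalisation and probe summary), per the submitters' processing notes; its version is not given in the sources used here. The sets were normalised apart, judging by their quartiles, and were tested apart. Of 31099 probe sets, 20832 named 1 gene, and symbols were updated from the GRCr8 gene table by Entrez identifier for 20764. Genes with a log2 signal above 4 on at least 2 arrays were tested, 10019 in set 1 and 10330 in set 2.

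The linear models used limma 3.58.1 under R 4.3.3 (two-sided; SE is the moderated standard error). Set 2 was fitted with its 3 groups sharing 1 spread. Set 1, with 1 array per agent and time, was fitted with an additive model of agent and time, whose residual is its only spread. The script was tested on simulated data. The 9 members, the marker lists and the genes to name were chosen with earlier results of these data known. Named were all members, other eicosanoid genes past the threshold, and the 5 genes most like each of the 3 members with the largest spread. From the list of inflammatory inducers, the genes named are those that passed. Marker lists were neuron, astrocyte, microglia and macrophage, neutrophil, endothelium and pericyte, meninges, oligodendrocyte, choroid plexus, red cell, activity genes and inflammatory inducers. The design text names separate animals for set 2; p-values measure the spread between these arrays. The alternatives were other filters, priors, scalings, arrays in the fit, probe set rules, a replicate block, leaving out each array and, added after seeing the data, a floor of 4.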

Additional observations from a re-analysis of the deposited data

Results flagged for a closer look

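The 4 Ptges2 signals with albumin plus blockers were 9.68, 9.68, 9.67 and 9.57, and replicate 4 lay apart: its gap to the nearest array was 0.907 of the group's range. This was 1 of 6 members tested in this way, and chance marks about 1 in 20 groups.

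Ptgs1 in set 1 stood on opposite sides of the sham array at the early and late times. The mean of the 3 agents at 48 h was 0.905 above sham, with all 3 arrays above it, while all 3 arrays at 7/8 h were below it. The share of all genes with this pattern was not counted. The difference from sham was not tested time by time, because the sham is a lone array. The contrast of 48 h against 7/8 h is free of the sham array and was 1.34 (limma adjusted p = 0.149).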

How the results depend on the processing

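Leaving out 1 array at a time kept the direction and the side of the threshold of 404 of 432 single-gene values of the members, and the other alternatives of 362 of 372. Only Ptges at 24 h and at 48 h was called in the main fit, so most of these values had no call to lose. These shares therefore say little about how firm the calls are, and the omissions that lost them are given above. Setting signals below 4 to 4, chosen after seeing the data, changed no member's side of the threshold; over all genes it moved the count for DOC from 47 to 14, for albumin in set 1 from 37 to 22 and for blockers against albumin from 2 to 0. The members called for albumin against sham in set 1 (0) became 1 with the filter on mean signal, 1 with the trended, robust prior and 0 to 1 over the omissions. Those at 24 h (1) became 0 without a filter, 0 with all 19 arrays sharing the spread and 0 to 1 over the omissions, and those at 48 h (1) became 0 without a filter and 0 to 2 over the omissions, and the cause was not tested. Ptges at 24 h had an adjusted p of 0.121 without a filter and 0.0513 with 19 arrays, and at 48 h 0.0587 without a filter.

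Values that changed sign were near 0 or rested on a single array, apart from Ptgs1 for blockers against sham under a replicate block, given below. The cause was not tested. With arrays centred on their medians, Ptgs1 for albumin against sham in set 2 was -0.039, Ptges3 for blockers against sham -0.0061 and Ptges3 for TGF-β1 -0.040. With the mean of all probe sets, Ptgs1 for albumin in set 2 was -0.0023. Over the omissions, Ptgs1 ranged from -1.09 to 0.79 (albumin, set 2), -1.02 to 0.86 (blockers against albumin), -0.046 to 1.10 (DOC) and -0.31 to 0.53 (albumin, set 1). Ptges3 ranged from -0.013 to 0.14 (blockers against sham), -0.13 to 0.032 (DOC) and -0.036 to 0.081 (TGF-β1), and Ptges2 from -0.15 to 0.10 (albumin, set 1). Pla2g4a ranged from -0.20 to 0.90 (blockers against sham) and -0.33 to 0.55 (24 h against 7/8 h), and Ptgs2 from -0.0038 to 1.28 (24 h) and -0.69 to 0.71 (48 h).

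The replicate numbers of set 2 were taken as numbers alone, since same-numbered arrays correlated between -0.136 and 0.223 after group means were removed. With a replicate block, 0 members were called in the 3 comparisons of set 2, and Ptgs1 for blockers against sham was 0.076 in place of -0.23; over all genes the block moved the count for albumin from 137 to 53. Counts over all genes also moved without a filter, to 27 for albumin in set 2, 0 at 24 h, 286 at 48 h and 75 for DOC. Over the omissions they ran from 1 to 191 for albumin in set 2, 1 to 126 at 24 h, 167 to 573 at 48 h, 1 to 202 for DOC and 2 to 117 for albumin in set 1. Signals near the floor limit Ptger2, Ptger4 and Ptgis.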

Other observations

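Ptgs2os, the long non-coding RNA that lies beside Ptgs2, has a probe set of its own and was looked at after its values were seen, with no test. In set 1 it read 6.97, 7.08 and 5.46 after DOC at 7, 24 and 48 h, 7.06, 6.63 and 6.90 after albumin, and 6.34, 6.61 and 5.78 after TGF-β1, against 5.82 in the sham. Like Ptgs2, it was highest at 24 h and below sham at 48 h after DOC. After albumin it was highest at the early time, where Ptgs2 was lowest. After TGF-β1 both were highest at 24 h, but at 48 h Ptgs2os lay below sham and Ptgs2 above it. In set 2 it read 5.93, 7.42 and 7.14 with albumin, 6.69, 7.15, 6.73 and 5.65 with albumin plus blockers, and 6.07 and 5.83 in the shams, so the groups overlapped. Albumin replicate 2 was the highest array of set 2 for Ptgs2 and for Ptgs2os.

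Markers of other cortical cells give the level of the tissue around these genes. Astrocyte markers (10 tested) lay between -0.06 and 0.63 relative to sham on the treated arrays of set 1, between -0.72 and -0.06 with albumin in set 2, and between 0.00 and 0.07 with blockers. Oligodendrocyte markers lay between -0.30 and 0.48 in set 1 and between -0.42 and 0.14 in set 2. Endothelium and pericyte markers lay between -0.55 and 0.45 in set 1, where 6 of 11 were called higher at 48 h than at 7/8 h, and between -0.10 and 0.26 on the treated arrays of set 2. Ttr, of choroid plexus, lay between -2.01 and 0.33 on the treated arrays of set 1. Red cell markers lay between 0.52 and 2.39 above sham on the treated arrays of set 2, with none called in limma's comparisons there.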
